A study of Mus musculus with 2 samples.

Results

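The genes described here encode glycoproteins and proteoglycans of the extracellular matrix. They were chosen by name, from a list of 47 gene symbols drawn up with earlier results of the same 2 libraries known. Of these, 39 had values among the 13281 genes of the deposited expression table. The other 8 (Acan, Ecm2, Eln, Lum, Mfap5, Svep1, Tgfbi and Vtn) were not analysed here. RNA was sequenced from 661W cells, a mouse line labelled as photoreceptors, whose source was a retinal tumour of an SV40 T antigen mouse. To ask what TRPM1, a calcium-permeable channel, does to gene expression in such cells, 1 library was made from 661W cells stably expressing 3xFlag-TRPM1 (3xF-TRPM1), in which a FLAG tag is joined to the N terminus of human TRPM1. The other library was made from 661W cells stably carrying the control vector (empty vector). Both populations are the products of infection with a pBabe-Puro retrovirus and of selection, and both were grown under the same conditions in serum-containing medium. With 1 library per group there is no replicate check, no SD and no p-value, and every comparison is between these 2 libraries. What else may differ between these 2 cultures and the TRPM1 transgene cannot be told apart, and expression of the transgene was not analysed here.

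The matrix around a cell is a network of collagen fibrils, elastic fibres and basement membranes, held together by glycoproteins. Small leucine-rich proteoglycans bind collagen fibrils and control their width, and fibrillin microfibrils are the scaffold on which elastin is laid down. Fibronectin joins cells to the network through integrins, and matricellular proteins such as thrombospondins and tenascins change how cells hold on to it without being main parts of its structure. In the eye these proteins build the sclera, Bruch's membrane and vessel walls, and in humans mutations of EFEMP1 cause an inherited macular dystrophy.

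Levels are CPM, the reads of a gene scaled to a fixed number of reads per library. The methods name a measure per kilobase, but the deposited values go in equal steps for genes of all lengths, and they were therefore read as CPM, not divided by gene length. The listed genes held 17869838 reads in the 3xF-TRPM1 library and 16404444 reads in the empty vector library. The lowest value of either library was 1.02 CPM, and genes near 0 therefore have no value here. Log2 fold changes are 3xF-TRPM1 over empty vector on CPM + 0.5, which makes the change of scarce genes look smaller. Genes were called higher or lower where their fold change reached 1.5 (0.585 on the log2 scale) and the 95% interval of their read ratio (exact binomial, Clopper-Pearson) lay to 1 side of 1-fold. Such an interval has no pseudocount, covers counting error and says nothing of variation between cultures. PCR copies were not told apart, so reads are not independent molecules.

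Matrix glycoprotein and proteoglycan transcripts of the list were mostly higher in the 3xF-TRPM1 library. Since earlier results of these libraries were known when the list was drawn up, its shares are a description and no independent test. Of the 39 measured genes, 16 were called higher (41.0%) and 2 were called lower (5.13%), while 3.91% of all genes were called higher and 3.07% were called lower. The median log2 fold change was 0.47 over the 39 genes and 0.0093 over all genes. A log2 fold change above 0 was found in 33 of the 39 genes (84.6%), against 51.8% of all genes, and 31 counting intervals lay above 1-fold, as did those of 23.1% of all genes. Another 4 intervals lay below 1-fold, against 19.7% of all genes, and 4 held it. Abundant and scarce members both took part. Where the mean of both libraries reached 50 CPM, 5 of 19 members were called higher (26.3%, against 2.1% of all genes at that level) and 1 was called lower (5.26%, against 0.456%). Under 50 CPM, 11 of 20 members were called higher (55.0%, against 4.94%) and 1 was called lower (5.0%, against 4.56%). In bulk RNA, fewer cells of a type and less RNA per cell cannot be told apart.

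The calls differed in number between groups of members with different roles. Calls upward were made for 6 of 7 small leucine-rich proteoglycans, 6 of 12 elastic fibre and microfibril proteins, 2 of 11 matricellular proteins, 1 of 6 adhesive glycoproteins and 0 of 2 large or basement membrane proteoglycans. The group medians on the log2 scale were 1.02, 0.55, 0.31, 0.32 and 0.18 in that order. Over all genes, 3.91% were called higher and 3.07% lower, and nothing is read from groups with at most 2 calls. Without the small leucine-rich proteoglycans, 10 of 32 members were called higher (31.2%) with a median of 0.35. The calls downward were the adhesive glycoprotein Npnt and the matricellular protein Spp1.

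**Figure D1:**
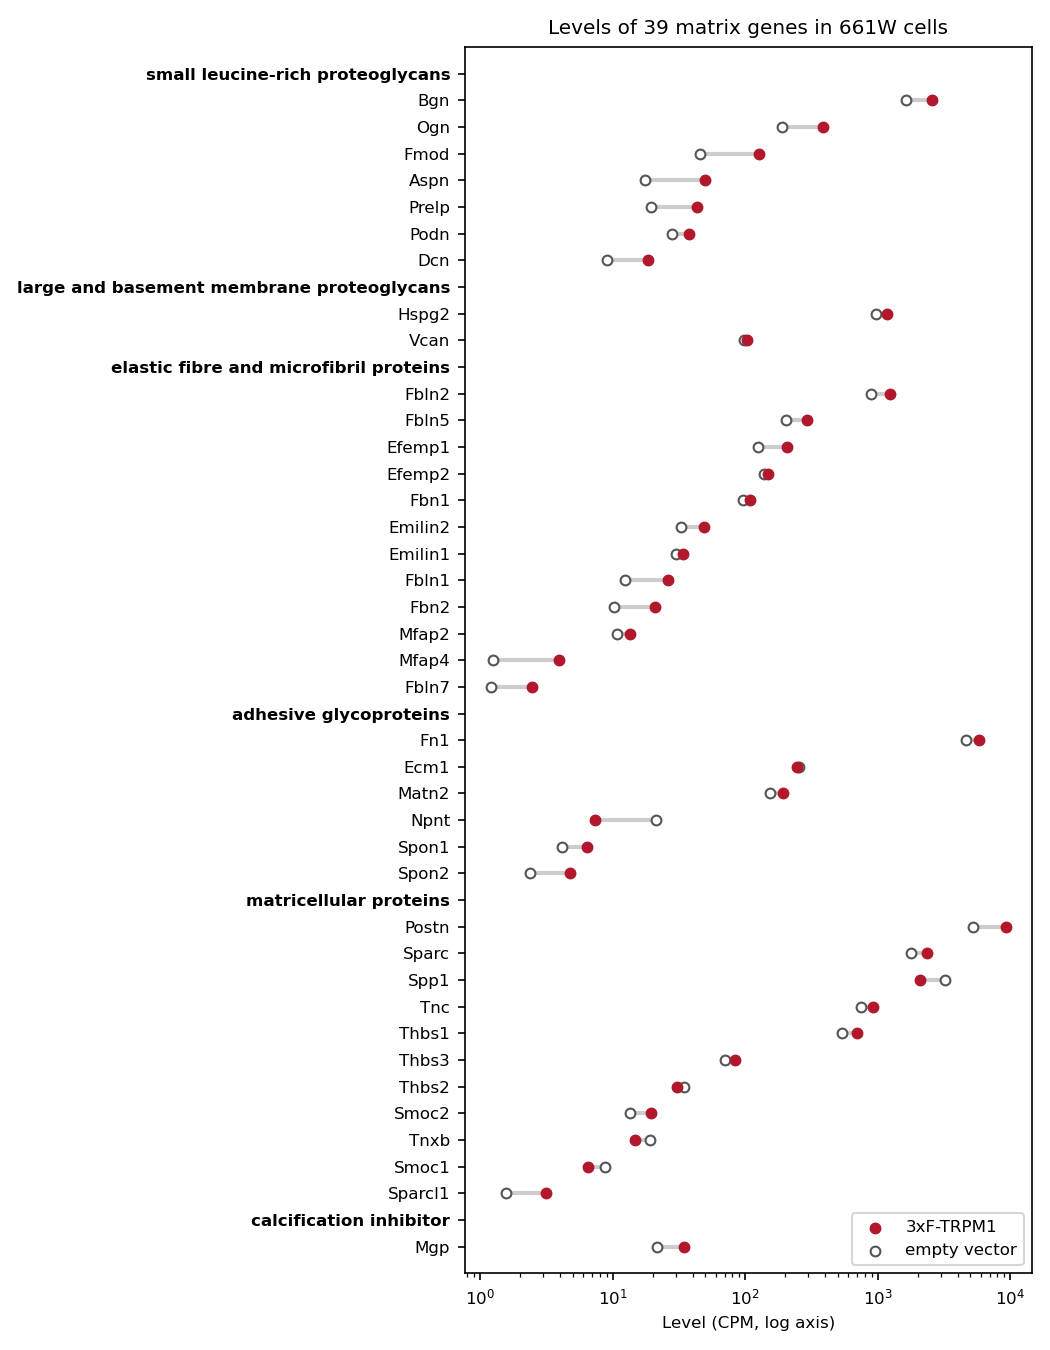
Level in CPM, on a log axis, of each of the 39 measured matrix genes in 3xF-TRPM1 cells (filled red circles) and in empty vector cells (open circles), 1 library each, grouped by role. Postn is the highest red circle at 9328 CPM, and the red circle lies to the right of the open one in 33 genes.

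Together the 39 transcripts made up 2.81% of the listed reads in 3xF-TRPM1 cells and 2.17% in empty vector cells. Their summed level was 28517 CPM and 21258 CPM, a ratio of 1.34. The percentages rest on the listed reads and the CPM on the effective library sizes, so they give different ratios. On the log2 scale the ratio was 0.42 in CPM and 0.38 when scaled to the listed reads. Periostin (Postn) alone was 32.7% of this sum in 3xF-TRPM1 cells and 24.4% in empty vector cells, and without it the ratio was 1.19. To compare genes with each other, CPM were divided by the gene length of the deposited table. For these members this length equals the bases covered by all annotated exons, such as 8702 for Postn and 1648 for Spp1. It can be longer than the transcript that the cells made, which was not measured. Orders between genes therefore hold for this length only. Per kilobase of this length, osteopontin (Spp1) was the most abundant member in both libraries. It had 1271 CPM per kb in 3xF-TRPM1 cells and 1939 CPM per kb in empty vector cells. Postn followed with 1072 and 597, Sparc with 624 and 467, Fn1 with 498 and 398, and Bgn with 420.3 and 268 CPM per kb. These 5 genes held the same order in both libraries. Lower down, the order moved: Ogn stood at place 7 of 39 in 3xF-TRPM1 cells and at place 10 in empty vector cells, Prelp at 20 and 26, Mfap4 at 31 and 36, and Npnt at 35 and 28. At the bottom, Fbln7 had 0.755 and 0.370 CPM per kb and Spon1 0.612 and 0.397.

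Small leucine-rich proteoglycans had the largest group median. Asporin (Aspn), a collagen-binding member with an aspartate-rich end, was at 49.7 CPM (876 reads) in 3xF-TRPM1 cells and 17.6 CPM (295 reads) in empty vector cells. Its log2 fold change was 1.47 (95% counting interval 1.30 to 1.69). Fibromodulin (Fmod), which guides collagen fibril assembly and crosslinking, was at 127 and 45.7 CPM, also a log2 fold change of 1.47 (1.36 to 1.60). Prelp, which links basement membranes to the tissue beneath, was at 42.9 and 19.4 CPM, for a log2 fold change of 1.12. Osteoglycin (Ogn, also called mimecan) was at 387 CPM in 3xF-TRPM1 cells and 190.1 CPM in empty vector cells, a log2 fold change of 1.02 (0.96 to 1.09). All 4 were at least doubled on this scale, and Ogn is the most abundant of them.

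Decorin (Dcn) and biglycan (Bgn), close relatives that carry chondroitin or dermatan sulfate chains, were far apart in abundance. Dcn was at 18.4 CPM (325 reads) in 3xF-TRPM1 cells and 9.03 CPM (151 reads) in empty vector cells, a log2 fold change of 0.99 (0.75 to 1.32). Bgn was at 2563 and 1635 CPM, for a log2 fold change of 0.65 (0.63 to 0.67). Per kilobase, Dcn had 3.16 CPM in 3xF-TRPM1 cells and 1.55 CPM in empty vector cells, while Bgn had 420.3 and 268, so in both libraries Bgn was the prevailing one of the 2 transcripts. Podocan (Podn), at 37.4 and 28.2 CPM, was the only measured member of the group that was not called, with a log2 fold change of 0.40 (0.24 to 0.58).

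**Figure D2:**
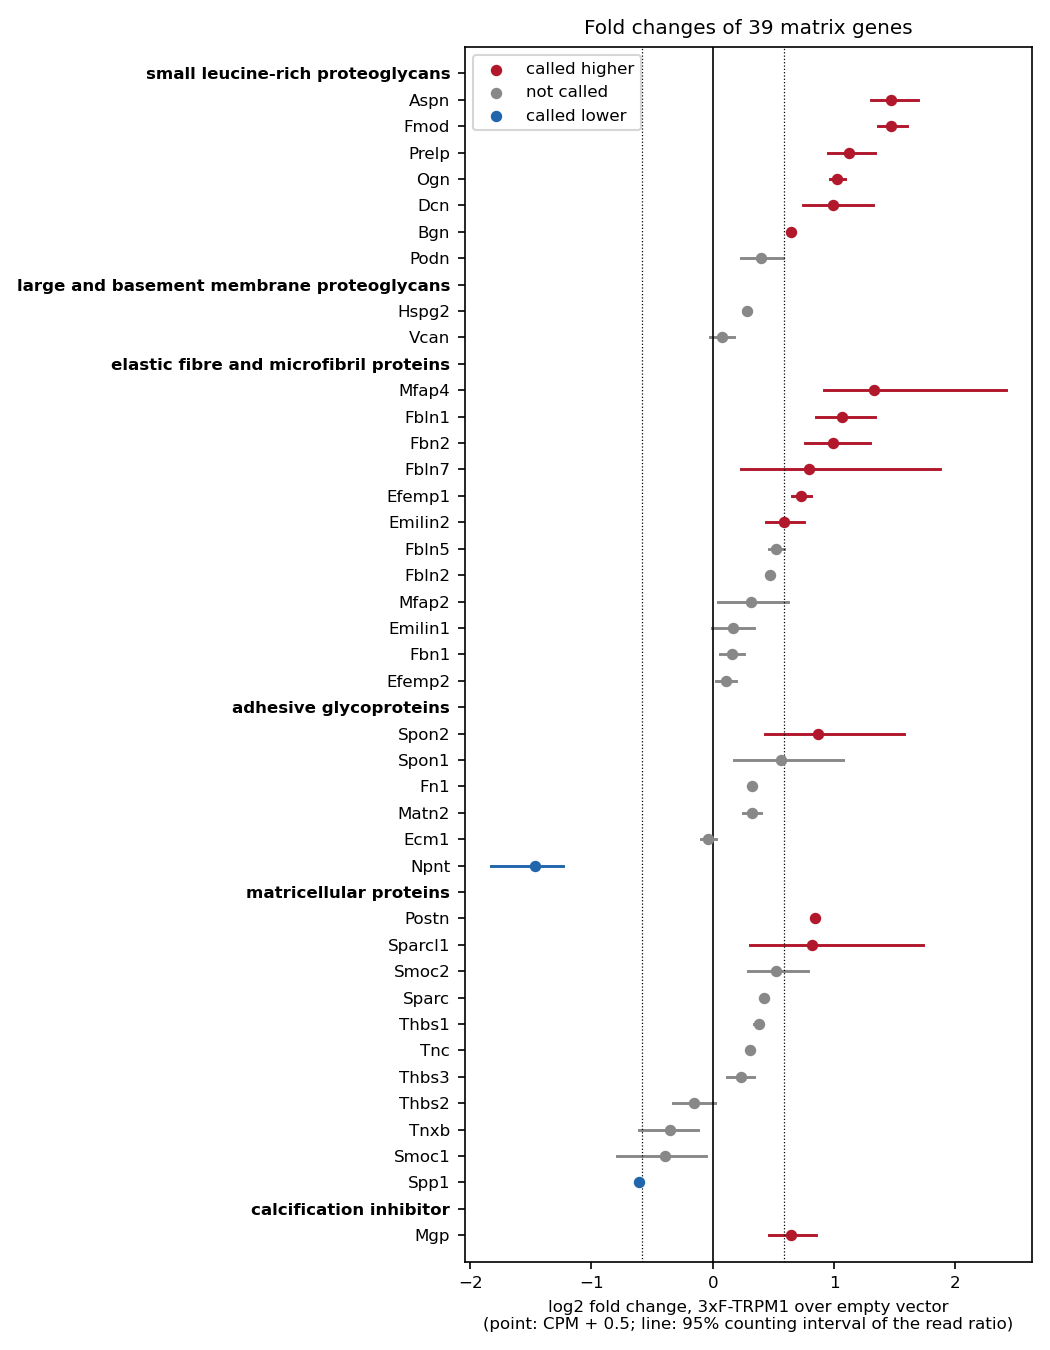
Log2 fold change of each of the 39 measured matrix genes, 3xF-TRPM1 over empty vector, grouped by role. Points are on CPM + 0.5, lines are 95% counting intervals of the read ratio without a pseudocount, and dotted lines mark 1.5-fold in each direction. Of the 7 small leucine-rich proteoglycans 6 lie beyond the right dotted line, and Npnt and Spp1 lie beyond the left one.

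Genes of this family lie in clusters, and the positions below are those of GENCODE release M21 on GRCm38. Aspn (chromosome 13, 49544443 to 49567565) and Ogn (chromosome 13, 49608046 to 49624501) are on the same strand, with the gene of osteomodulin (Omd, a bone and tooth member of the family outside the list of 47) between them. Omd was at 18.4 CPM in 3xF-TRPM1 cells and 7.77 CPM in empty vector cells, a log2 fold change of 1.19, so the 3 measured genes of this cluster were all called higher. All 3 lie inside Cenpp, a centromere protein gene on the opposite strand, which was at 8.56 and 6.28 CPM, and Aspn shares 7 exon bases with it. Outside the cluster, Ippk showed a log2 fold change of 0.13, Tes3-ps one of 0.01, Nol8 one of -0.13 and Iars one of -0.22, all under the threshold. Prelp (chromosome 1, 133910304 to 133921414) and Fmod (chromosome 1, 134037254 to 134048277) are also neighbours. Next to Prelp, opticin (Optc), a family member of the eye's vitreous, was at 2.83 CPM (50 reads) in 3xF-TRPM1 cells and 2.69 CPM (45 reads) in empty vector cells. Its log2 fold change was 0.06 and Optc was not called. With so few reads its counting interval (-0.53 to 0.69) also held the threshold, so a change of that size is not excluded. Btg2, beyond Fmod, had a log2 fold change of -0.02. These neighbours, within 100000 bases, were chosen after their values had been seen.

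The promoters of the 3 members with the highest levels among those at least doubled are shown, since they moved together. Each line gives the 150 bases before the RefSeq transcription start site (build GRCm38.p6), written 5′ to 3′ on the strand of the gene. Capitals mark matches on either strand to TATAAA (the TATA box), to CCAAT (bound by NF-Y), to TGANTCA (bound by AP-1), to GGAATG (bound by TEAD factors) or to GGGCGG (bound by SP and KLF factors).
Ogn, chr13:49607865-49608014, plus strand: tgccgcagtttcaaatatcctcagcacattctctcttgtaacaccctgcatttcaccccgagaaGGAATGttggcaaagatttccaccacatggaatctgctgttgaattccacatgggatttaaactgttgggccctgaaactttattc
Fmod, chr1:134037104-134037253, plus strand: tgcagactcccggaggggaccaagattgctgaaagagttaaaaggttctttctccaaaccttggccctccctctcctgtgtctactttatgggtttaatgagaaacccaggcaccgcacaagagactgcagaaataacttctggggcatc
Aspn, chr13:49544293-49544442, plus strand: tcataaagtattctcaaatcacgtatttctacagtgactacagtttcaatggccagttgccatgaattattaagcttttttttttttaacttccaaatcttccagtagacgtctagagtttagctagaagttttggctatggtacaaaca
Within these 150 bases only Ogn held a match, to GGAATG. The stretch of Aspn has a GC content of 33.3%, that of Ogn 44.0% and that of Fmod 49.3%. Over the full window of the table, 250 bases before to 50 bases after the start, a RefSeq promoter was found for 27 of the 39 genes. The median GC content of these windows was 52.3% for members called higher, 60.3% for members not called and 52.7% for all promoters. GGGCGG was in 13 of these 27 windows and in 2 of the 10 that belong to genes called higher, against 35.7% of all 32851 windows, and TATAAA was in 7 of 27 and 3 of 10, against 13.6%. CCAAT was in 11 of 27 and 4 of 10 (37.4% of all windows), GGAATG in 3 and 2 (14.7%), and TGANTCA in 3 and 1 (7.81%). A match to these letters is a description of the sequence and not a site shown to be used.

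Elastic fibre and microfibril genes all had log2 fold changes above 0, from 0.11 to 1.33, and the fibulins and fibrillins split by member. Fibulin-1 (Fbln1), which binds fibronectin and elastic fibres, was at 26.2 CPM in 3xF-TRPM1 cells and 12.3 CPM in empty vector cells, a log2 fold change of 1.06 (0.85 to 1.34). Fbln2, far more abundant at 1227 and 887 CPM, had a log2 fold change of 0.47, and Fbln5, which is needed to assemble elastin, was at 291 and 202 CPM with 0.52. Neither Fbln2 nor Fbln5 was called. Fbln7 was called higher from few reads, 43 in 3xF-TRPM1 cells and 20 in empty vector cells, with a wide interval (0.23 to 1.87). Efemp1 (fibulin-3) was at 207 and 125 CPM, for a log2 fold change of 0.73 (0.65 to 0.81), while Efemp2 (fibulin-4), which brings lysyl oxidase to elastin, was at 148 and 137 CPM with 0.11.

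Fibrillin-2 (Fbn2), the fibrillin of developing tissue, was at 20.9 CPM (369 reads) in 3xF-TRPM1 cells and 10.3 CPM (172 reads) in empty vector cells, a log2 fold change of 0.99 (0.76 to 1.29). Fibrillin-1 (Fbn1), the main fibrillin of adult microfibrils, was at 108 and 96.8 CPM with 0.16, and was not called. The fold was thus larger in the scarcer fibrillin, whose level stayed below that of Fbn1 in both libraries (1.58 against 8.91 CPM per kb in 3xF-TRPM1 cells, and 0.778 against 7.98 CPM per kb in empty vector cells). Emilin2, of the elastin microfibril interfacer family, was at 49.0 and 32.5 CPM, for a log2 fold change of 0.59 just past the threshold. It fell short of the threshold under total count scaling, with 0.54. Emilin1 was at 33.6 and 29.9 CPM with 0.16. Of the microfibril-associated proteins, Mfap4 was at 3.91 CPM (69 reads) in 3xF-TRPM1 cells and 1.26 CPM (21 reads) in empty vector cells, a log2 fold change of 1.33 (0.92 to 2.42). Mfap4 shares 89 exon bases with Mapk7 on the opposite strand, which was at 36.8 and 38.7 CPM, and whether the counting used strand is not given in the sources used here. In all, 14 members share exon bases with another annotated gene, from 3 bases (Tnxb) to 2442 bases (Fbn1 with Gm9913), and in 6 of them the other gene has values here (Aspn, Mfap4, Efemp2, Tnc, Thbs3 and Spp1). The reads of all 14 are uncertain to that extent. Mfap2, which binds fibrillin, was at 13.6 and 10.8 CPM and was not called.

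**Figure D3:**
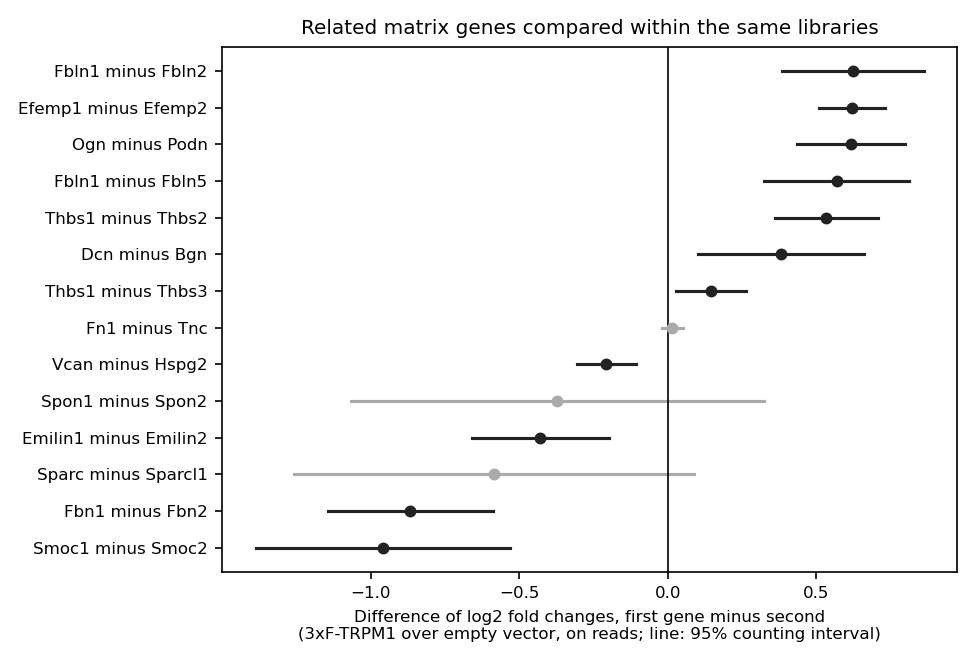
Difference between the log2 fold changes (3xF-TRPM1 over empty vector, on reads) of 2 related matrix genes, the first minus the second, with its 95% counting interval. Black marks intervals that exclude 0 and grey those that hold it. Fbln1 minus Fbln2 is highest at 0.62 and Smoc1 minus Smoc2 lowest at -0.96.

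Differences between relatives were measured within the same libraries, so no choice of scaling enters them. The log2 fold changes on reads of 2 relatives were subtracted for 14 pairs, and the 95% counting interval of the difference excluded 0 in 11 of them. The largest difference was in Smoc1 minus Smoc2, at -0.96 (-1.39 to -0.53), followed by Fbn1 minus Fbn2 at -0.87 (-1.14 to -0.59). Fbln1 exceeded Fbln2 by 0.62 (0.38 to 0.86), Efemp1 exceeded Efemp2 by 0.62 (0.51 to 0.73) and Ogn exceeded Podn by 0.62 (0.44 to 0.80). Dcn exceeded Bgn by 0.38 (0.10 to 0.66). For Fn1 minus Tnc the difference was 0.02 with an interval of -0.02 to 0.05, the narrowest of the 14. The intervals of Sparc minus Sparcl1 (-1.26 to 0.09) and Spon1 minus Spon2 (-1.07 to 0.32) held 0 and were wide, since Sparcl1 and Spon2 have few reads.

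The large proteoglycans were not called in either direction. Versican (Vcan), which binds hyaluronan, was at 103 CPM in 3xF-TRPM1 cells and 97.8 CPM in empty vector cells, a log2 fold change of 0.08 whose interval held 1-fold (-0.02 to 0.17). Perlecan (Hspg2), the heparan sulfate proteoglycan of basement membranes, was at 1185 and 975 CPM, for a log2 fold change of 0.28 (0.25 to 0.31). Matrix Gla protein (Mgp), an inhibitor of calcification, was called higher, at 34.3 and 21.8 CPM, for a log2 fold change of 0.64 (0.47 to 0.85).

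Among the adhesive glycoproteins, fibronectin (Fn1) was the most abundant, at 5817 CPM in 3xF-TRPM1 cells and 4653 CPM in empty vector cells. Its log2 fold change of 0.32 (0.31 to 0.34) lay above 1-fold and under the threshold, as did that of matrilin-2 (Matn2), at 191 and 153 CPM. Spondin-2 (Spon2) was called higher from 84 reads in 3xF-TRPM1 cells and 40 reads in empty vector cells, with a log2 fold change of 0.86 (0.43 to 1.57). Spondin-1 (Spon1), first known from the floor plate of the spinal cord, was at 6.35 and 4.12 CPM, for a log2 fold change of 0.57, and passed the threshold with a pseudocount of 0.1 (0.61). Ecm1 was at 247 and 253 CPM with an interval across 1-fold.

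Nephronectin (Npnt), a ligand of integrin alpha8 beta1, went the other way. It was at 7.31 CPM (129 reads) in 3xF-TRPM1 cells and 21.1 CPM (353 reads) in empty vector cells, a log2 fold change of -1.47 (-1.83 to -1.23). This was the lowest log2 fold change of the 39 genes. Npnt lies on chromosome 3 from 132881745 to 132950291. The 150 bases before its start are shown beside those of the proteoglycan genes above, because it is the member that moved furthest in the other direction.
Npnt, chr3:132950292-132950441, minus strand: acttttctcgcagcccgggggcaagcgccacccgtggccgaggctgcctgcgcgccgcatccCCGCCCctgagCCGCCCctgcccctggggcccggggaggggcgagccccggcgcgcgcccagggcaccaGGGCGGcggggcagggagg
The stretch has a GC content of 82.0% and 3 matches to GGGCGG, 2 of them as the reverse complement, and none of the other 4 motifs.

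Matricellular genes held the most abundant member called higher, Postn, and the most abundant member called lower, Spp1. Periostin (Postn), which binds collagen and fibronectin and is secreted where tissue is remodelled, was at 9328 CPM (164535 reads) in 3xF-TRPM1 cells and 5193 CPM (86868 reads) in empty vector cells. Its log2 fold change was 0.84 (0.83 to 0.86). Osteopontin (Spp1), a phosphoprotein that binds integrins and calcium, was at 2094 CPM (36940 reads) in 3xF-TRPM1 cells and 3196 CPM (53460 reads) in empty vector cells, a log2 fold change of -0.61 (-0.63 to -0.59). Spp1 shares 309 exon bases with Gm42793 on the same strand, which was at 2.49 and 4.07 CPM. Per kilobase of the deposited length, the levels of Spp1 and Postn were 1271 and 1072 CPM in 3xF-TRPM1 cells, and 1939 and 597 CPM in empty vector cells. On that length the gap between the 2 leading transcripts was narrower with 3xF-TRPM1. Another transcript length could change their order. Their promoters are shown for the same reason, as those of the most abundant member called in each direction.
Postn, chr3:54360957-54361106, plus strand: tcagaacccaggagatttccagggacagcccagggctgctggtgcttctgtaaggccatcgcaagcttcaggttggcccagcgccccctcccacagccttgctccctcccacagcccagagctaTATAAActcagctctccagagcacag
Spp1, chr5:104434961-104435110, plus strand: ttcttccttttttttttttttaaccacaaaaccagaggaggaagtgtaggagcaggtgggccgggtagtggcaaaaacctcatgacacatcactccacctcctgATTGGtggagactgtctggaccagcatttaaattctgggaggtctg
The TATAAA of Postn begins 26 bases before its RefSeq start. The match of Spp1 is a CCAAT on the opposite strand that begins 46 bases before its RefSeq start. The GENCODE genes, whose starts differ slightly, are at chromosome 3, 54361109 to 54391037 (Postn), and chromosome 5, 104435118 to 104441050 (Spp1).

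The other matricellular genes fell on both sides of 1-fold. Sparc, a collagen-binding protein, was at 2364 CPM in 3xF-TRPM1 cells and 1767 CPM in empty vector cells, a log2 fold change of 0.42, and its relative Sparcl1 was called higher from 55 and 26 reads, with 0.82 (0.31 to 1.74). Thrombospondin-1 (Thbs1), an activator of latent TGF-beta, was at 694 and 534 CPM with 0.38, and Thbs3 at 83.1 and 70.8 CPM with 0.23. Thbs2 was at 30.7 and 34.3 CPM with -0.15, and its interval held 1-fold. Tenascin-C (Tnc) was at 925 and 748 CPM with 0.31, while tenascin-X (Tnxb), a collagen-binding tenascin, was at 14.7 and 19.0 CPM with -0.35 (-0.60 to -0.12). The calcium-binding proteins Smoc2 and Smoc1 were at 19.4 and 13.4 CPM and at 6.52 and 8.73 CPM, with log2 fold changes of 0.52 and -0.39. Apart from Sparcl1 none of these genes was called.

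**Figure D4:**
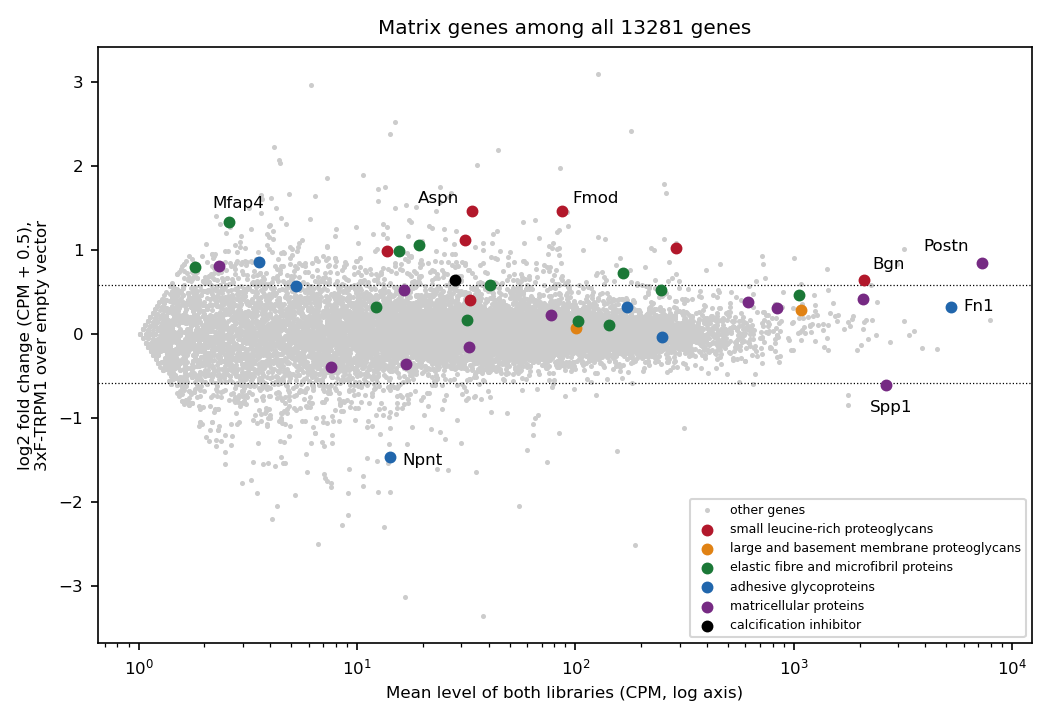
Log2 fold change on CPM + 0.5, 3xF-TRPM1 over empty vector, against the mean level of both libraries in CPM on a log axis. Grey points are the other genes of 13281, coloured points the 39 matrix genes by role, and dotted lines 1.5-fold. Postn and Fn1 lie at the far right among the most abundant genes, and 16 coloured points lie above the upper dotted line against 2 below the lower one.

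Genes that build, crosslink or hold the matrix were set beside the members, from 5 lists of 139 genes of which 99 were measured. Enzymes that make glycosaminoglycan chains had a median log2 fold change of -0.02, and 1 of 36 was called higher (2.78%) and 2 lower (5.56%), near the shares of all genes (3.91% and 3.07%). Under total count scaling 4 of them were called lower. Csgalnact1, which starts chondroitin chains, was at 6.46 CPM in 3xF-TRPM1 cells and 3.41 CPM in empty vector cells (log2 fold change 0.83). Xylt1, which adds the first sugar of the chain to the core protein, was at 4.54 and 9.50 CPM (-0.99), and Sulf1, which trims sulfates from heparan sulfate, at 8.73 and 16.6 CPM (-0.89).

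With so few genes in the next 3 lists, 1 call is already 7.14% to 11.1% of a list, and nothing is read from their shares. Of 12 genes of hyaluronan synthesis, linkage and turnover, the link protein Hapln4 was called higher, at 22.2 and 14.6 CPM (0.59), and the synthase Has1 was called lower, at 7.43 and 13.5 CPM (-0.82). Hapln4 was not called under either other scaling or with a pseudocount of 1, and 2 genes of this list were called lower under total count scaling. Of 9 cell surface proteoglycans only syndecan-3 (Sdc3) was called, lower, at 30.2 CPM in 3xF-TRPM1 cells and 50.9 CPM in empty vector cells (-0.75). Of 14 genes of elastic fibre crosslinking and latent TGF-beta binding, only lysyl oxidase (Lox), which crosslinks collagen and elastin, was called higher, at 1301 and 863 CPM (0.59). It also lost its call under both other scalings. The 28 other matrix glycoproteins and proteoglycans had a median of 0.17, with 9 called higher (32.1%, against 3.91% of all genes) and 2 lower (7.14%, against 3.07%). Among them, Cilp2 was at 34.0 and 12.0 CPM (1.46), Omd stood at 1.19 on the log2 scale, and the basement membrane protein Fras1 was at 108 and 50.3 CPM (1.09). Dermatopontin (Dpt), which binds decorin, was called lower, at 3.06 CPM in 3xF-TRPM1 cells and 11.2 CPM in empty vector cells (-1.72). The list of 47 and these lists were drawn up with earlier results of the same libraries known.

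**Figure D5:**
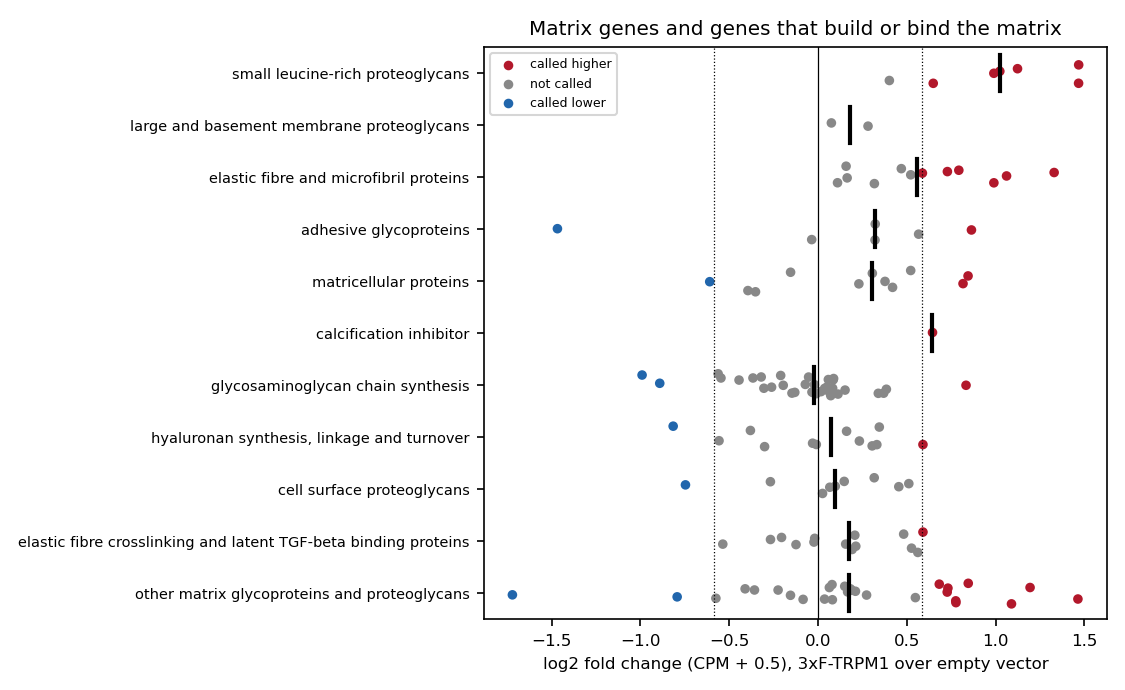
Log2 fold change on CPM + 0.5, 3xF-TRPM1 over empty vector, of the measured genes of each role group (upper 6 rows) and of each list of genes that build or bind the matrix (lower 5 rows). Each point is a gene, black bars are medians and dotted lines mark 1.5-fold. The median is 1.02 for small leucine-rich proteoglycans and -0.02 for enzymes of glycosaminoglycan chains.

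Markers of photoreceptors and of other cell types were read in the same libraries, and which cells the cultures held was not tested. Of 22 cone and rod photoreceptor genes only Gnat2, Rom1 and Pde6b had values, with a summed level of 10.9 CPM in 3xF-TRPM1 cells and 14.1 CPM in empty vector cells and none called, and the other 19 were not analysed here. Of 14 fibroblast and mural cell markers outside the matrix list, 11 were measured, and Fap, Tcf21 and Rgs5 were not analysed here. Pdgfra, Thy1 and Acta2 were called higher, 3 of the 11 (27.3%, against 3.91% of all genes). The summed level of the 11 was 1939 and 1349 CPM. Others were not called, such as Pdgfrb at 220.01 and 215 CPM, and S100a4 at 4.88 and 6.87 CPM had a log2 fold change of -0.46 with an interval below 1-fold (-0.92 to -0.08). The list for Mueller glia and astrocytes held 13 genes, of which 6 had values and the other 7 were not analysed here. Apoe, Clu, Slc1a3 and Slc1a2 were called higher, 4 of the 6 with values (66.7%, against 3.91% of all genes). This share holds for the genes with values only and not for the whole list. Their summed level was 1427 CPM in 3xF-TRPM1 cells and 951 CPM in empty vector cells, including Dkk3 (0.28) and Glul (-0.14), which were not called. Few markers of the last 3 lists were measured, all low in both libraries, and the others were not analysed here. These were 2 of 8 for endothelial cells (5.39 and 6.40 CPM summed) and 1 of 9 for retinal pigment epithelium (2.27 and 2.57 CPM). For leukocytes they were 2 of 11 (9.07 and 15.9 CPM). Both of these, Cd68 (52 and 81 reads) and Cd14 (108 and 185 reads), were called lower, against 3.07% of all genes. Nothing is read from so few genes. The part of these marker genes in the matrix result was not tested.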

How the data were processed

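RNA sequencing of 1 library of 661W cells expressing 3xF-TRPM1 and 1 library of empty vector 661W cells was analysed. Libraries were prepared by the authors with the KAPA mRNA HyperPrep kit. Per the labels and methods, reads were aligned to GRCm38 with HISAT2 2.1.0, counted with featureCounts 2.0.0, and passed to edgeR 3.28.1 and DESeq 1.40.0; no annotation release or strand setting is given in the sources used. The deposited values were taken as CPM made by the authors, with no division by gene length. The methods name FPKM, a measure divided by gene length, for the comparison, but the values are whole multiples of 1 step per library, the same for genes of all lengths, which a value per kilobase would not be, and were therefore read as CPM. Its columns of fold changes and p-values, the mean of both libraries, the deposited gene set table and 2 columns that repeat the CPM were not used.

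CPM were divided by the value of 1 read (0.0567 CPM in 3xF-TRPM1, 0.0598 CPM in empty vector), and 100% of values were whole within 0.01 of a read. Effective library sizes were 17639743 and 16728172 reads. Lowest values stood for 18 and 17 reads. A count model was not fitted, because 1 library per group leaves no spread to estimate. A filter on a mean of 1 CPM removed 0 genes. Symbols missing or turned into dates (125) were looked up by identifier in GENCODE. Every measured member could be named; from each pathway list, up to 4 called genes with the largest change were named, and from the marker lists the measured genes. Optc, as a neighbour, and Abi3bp, Tnn, Tnr and the CCN genes were named outside this rule, after their values had been seen. Members and lists were chosen with earlier results of these data known. The interval of a difference between relatives used the sum of 1/reads. The procedure was tested on simulated reads that held counting error alone (Poisson). These had no variation between cultures and no PCR copies, so that test says nothing of either. Protein features were planned and not analysed here. Python 3.11.15, numpy 2.4.6, pandas 2.3.3, scipy 1.17.1 and matplotlib 3.10.9 were used.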

Additional observations from a re-analysis of the deposited data

How the results depend on the processing

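Alternatives were pseudocounts of 0.1 and 1, a mean of at least 5 CPM, no filter, total count and median-of-ratios scaling, a 2-fold threshold, the fold alone, and a mean of at least 50 CPM, the last chosen after seeing the data. None of the members and called pathway genes that a setting kept changed sign under it. The number of members called higher was 15 to 17 under both pseudocounts and both scalings and 12 with a mean of at least 5 CPM. It was 6 at 2-fold and 5 with a mean of at least 50 CPM, and the number called lower was 1 under each of these. Over all genes, 115 were higher and 117 lower at 2-fold, 101 and 22 with a mean of at least 50 CPM, 351 and 217 with a mean of at least 5 CPM, and 442 and 480 under total count scaling, where more genes were lower than higher, against 519 and 408 in the chosen setting. With a pseudocount of 0.1, 574 of all genes were higher and 452 lower, and with a pseudocount of 1 these were 440 and 335. Under median-of-ratios scaling they were 504 and 418. The filters and the 2-fold threshold test fewer genes or ask for a larger change by construction. Total count scaling also gave 4 glycosaminoglycan genes called lower, against 2, and 2 hyaluronan genes, against 1. The member with the highest log2 fold change was Aspn (1.47, with Fmod also at 1.47), but Mfap4 (1.57) with a pseudocount of 0.1 and Fmod (1.46) with a pseudocount of 1. Emilin2 was not called with a pseudocount of 1 or under either other scaling, and Spon1 was called with a pseudocount of 0.1. Hapln4 (0.55 and 0.58) and Lox (0.54 and 0.58) were not called under total count and median-of-ratios scaling. The median over members ran from 0.32 to 0.47. The log2 ratio of the summed level was 0.42, and 0.38 under total count scaling, 0.41 under median-of-ratios scaling and 0.26 without Postn. Total count scaling moved the median of all genes to -0.04. Genes with few reads, such as Fbln7, Mfap4 and Sparcl1, have wide intervals. No paired analysis was possible because each group has 1 library.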

Other observations

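Matricellular and secreted matrix proteins outside the list of 47 were also among the abundant transcripts. Abi3bp, a matrix protein that binds collagen, was at 1795 CPM in 3xF-TRPM1 cells and 1048 CPM in empty vector cells, a log2 fold change of 0.78. The CCN proteins, which link growth factors to the matrix, split by member. Ccn2 was called higher, at 82.5 and 51.2 CPM (0.68), as was Ccn5, at 156 and 94.0 CPM (0.73). Ccn1 was at 293 and 342 CPM (-0.22) and Ccn4 at 418 and 377 CPM (0.15), and neither was called. The tenascins outside the list were called in opposite directions, Tnn at 31.4 and 18.8 CPM (0.73) and Tnr, which was scarce, at 1.93 and 3.71 CPM (-0.79). These genes come from the list of other matrix glycoproteins and were chosen for mention after their values had been seen.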
